A study of Mus musculus with 6 samples.

Results

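Genes of the spliceosome and of the proteins that steer splice site choice were followed from primary mammary epithelial cells (MEC) to cell lines grown from breast tumors that lack JNK (MEKO). The members were the names in the expression table that begin with *Snrp*, *Sf3a*, *Sf3b*, *U2af*, *Prpf*, *Srsf* or *Hnrnp* followed by the usual number or letter, without pseudogene names. This gave 67 genes of 37753 entries with values, and 66 of them were expressed at a mean of 1 FPKM or more and were tested. FPKM is a fragment count scaled to the length of the transcript and to the size of the library. The names fall into 7 role groups: Sm core proteins (8 genes), proteins specific to the U1 and U2 snRNPs (4), SF3A and SF3B subunits (8), U2AF subunits (3), PRP factors (13), SR proteins (11) and hnRNP proteins (20).

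RNA was sequenced from 3 MEC preparations and from 3 MEKO lines, numbered 199, 233 and 336, with 1 library each and both groups on the C57/Bl6J background. MEC were Wap-Cre positive with intact *Mapk8* and *Mapk9*, were pooled from 3 to 5 virgin females aged 10 to 12 weeks, and were harvested at 90% confluence as primary cultures on collagen I. MEKO lines carried Wap-Cre with deleted *Mapk8* and *Mapk9*, the genes for JNK1 and JNK2. They came from tumors of mice that had given birth and were passaged 2 times on collagen I before growth on standard dishes. The Wap promoter is active in luminal cells during lactation, so the deletion is limited to that lineage. Genotype, tumor origin, parity, animal age, culture surface and time in culture cannot be told apart between the groups. Each MEKO line is represented by 1 library, and p-values measure only the spread between these 6 cultures.

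The spliceosome removes introns from pre-mRNA. It is built on each intron from small nuclear ribonucleoproteins (snRNPs), each a small RNA held in a ring of Sm or LSm proteins with its own specific proteins. The U1 snRNP recognises the start of the intron, U2AF reads the pyrimidine tract and the AG at its end, and the U2 snRNP with its SF3A and SF3B complexes settles on the branch point. The tri-snRNP of U4, U6 and U5 then joins, and PRP factors drive the rearrangements that make the enzyme active. SR proteins mostly bind exons and favour their inclusion, whereas hnRNP proteins often bind introns or silencer elements and oppose it. Splice site choice in epithelial cells is known to depend on such factors and on tissue-restricted regulators such as ESRP1 and ESRP2.

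The 3 largest increases among the 66 tested genes were *Hnrnpdl*, *Hnrnpd* and *Srsf9*, and these were also the only members on chromosome 5. The order depends on single libraries. Without MEC 3 the log2 fold change of *Hnrnpd* went from 0.64 to 0.36 and its rank from 2 to 8, and *Srsf9* ranked between 2 and 6 with any library left out. Their promoters are shown because the results below turn on these genes and because *Hnrnpd* and *Hnrnpdl* are paralogs that lie 54638 bases apart on the same strand. Each line gives the 250 bases before the gene's start in RefSeq on GRCm38.p6, 5′ to 3′ on the gene's strand, and capitals mark a CACGTG match.

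Hnrnpdl: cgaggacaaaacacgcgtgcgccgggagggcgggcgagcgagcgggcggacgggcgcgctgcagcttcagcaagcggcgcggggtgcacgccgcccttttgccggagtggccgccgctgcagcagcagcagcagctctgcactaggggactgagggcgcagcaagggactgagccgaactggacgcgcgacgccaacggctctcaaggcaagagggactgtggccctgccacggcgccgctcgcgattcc
Hnrnpd: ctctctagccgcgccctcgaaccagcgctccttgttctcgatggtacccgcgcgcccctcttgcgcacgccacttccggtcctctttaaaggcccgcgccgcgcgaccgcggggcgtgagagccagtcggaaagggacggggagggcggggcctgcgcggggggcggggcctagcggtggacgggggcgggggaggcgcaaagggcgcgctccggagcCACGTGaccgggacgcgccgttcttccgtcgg
Srsf9: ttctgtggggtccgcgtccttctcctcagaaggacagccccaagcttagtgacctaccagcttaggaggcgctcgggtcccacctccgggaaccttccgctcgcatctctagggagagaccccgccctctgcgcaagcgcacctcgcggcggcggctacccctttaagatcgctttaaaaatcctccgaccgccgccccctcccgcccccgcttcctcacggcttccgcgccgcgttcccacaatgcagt

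The windows are chr5:100039223-100039472 (minus strand) for *Hnrnpdl*, chr5:99978939-99979188 (minus strand) for *Hnrnpd* and chr5:115326927-115327176 (plus strand) for *Srsf9*. The *Hnrnpdl* window lies within the gene as GENCODE M21 draws it, since that annotation starts its longest transcript further upstream. CACGTG is the palindromic E-box that MYC-type factors can bind. It was present in the *Hnrnpd* window and not in the windows of *Hnrnpdl* and *Srsf9*, and CCAAT was in none of these windows. Among the 58 member genes matched in RefSeq, 8 of 79 promoter windows held it (10.1%), against 6.02% of 32851 windows over all genes. CCAAT, read on either strand and unable to overlap with CACGTG, was in 37 of the 79 member windows (46.8%) and in 33.9% of all windows. These shares describe letters in the windows and were not tested.

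Both targeted genes were lower in the MEKO lines. *Mapk8* was at 23.1, 25.1 and 19.2 FPKM in MEC and at 5.93, 3.12 and 1.37 FPKM in lines 199, 233 and 336 (log2 fold change −2.52, adjusted p = 0.0146 by limma). *Mapk9* was at 24.4, 21.5 and 22.1 FPKM in MEC and at 7.62, 3.16 and 3.07 FPKM in the lines (log2 fold change −2.17, adjusted p = 0.0122). The libraries are not alike within their groups. Of the summed FPKM of a library, between 0.955% and 1.39% came from the 67 splicing factor genes. MEC 3 had the lowest summed level of 13 proliferation genes, at 309.4 FPKM against 681.7 and 744.6 FPKM in MEC 1 and MEC 2, and the lines had 1153, 783.0 and 783.7 FPKM. Line 199 stood apart from the other lines by its markers. Its 6 basal epithelial markers summed to 1865 FPKM, against 9.92 and 45.1 FPKM in lines 233 and 336. MEC 1, MEC 2 and MEC 3 had 2063, 2242 and 1282 FPKM, so line 199 lay within the MEC range by this sum only. The 8 fibroblast markers of line 199 summed to 1111 FPKM, against 2.43 and 4.23 FPKM in lines 233 and 336. In MEC they summed to 149.1, 207.4 and 118.0 FPKM. The sums of line 199 rest on few genes. *Krt5*, *Krt14* and *Acta2* (608.1, 521.5 and 719.5 FPKM) carried the basal sum of line 199. No single basal marker of line 199 was within the MEC range. *Krt5*, *Krt14* and *Trp63* (15.65 FPKM) were above every MEC. *Acta2* was just below the 736.4 FPKM of MEC 3, the lowest MEC. *Myh11* and *Oxtr* were at 0.0812 and 0.0126 FPKM in line 199, also below every MEC. *Col1a1*, *Col1a2* and *Col3a1* (599.7, 408.1 and 71.5 FPKM) carried the fibroblast sum, whereas *Dcn*, *Lum* and *Thy1* (0.311, 0.0264 and 11.1 FPKM) were below every MEC. The 5 luminal markers (*Krt8*, *Krt18*, *Krt19*, *Epcam* and *Cdh1*) summed to 5308 to 8869 FPKM in MEC and to 789.3 to 1962 FPKM in the lines. All 5 had a log2 fold change below 0, and 4 were called lower by the limma thresholds given below (background 7.26%). In cultures of mixed cells, fewer cells of a type and less RNA per cell cannot be told apart.

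The splicing factor genes were mostly a little higher in MEKO, and 1 passed the test. Over the 66 tested genes the median log2 fold change (MEKO minus MEC, on log2(FPKM + 1)) was 0.19, with quartiles of 0.09 and 0.34 and a range of −0.36 to 0.81. Over all 12461 tested genes the median was 0.01, with quartiles of −0.41 and 0.35. Above 0 lay 54 of the 66 members (81.8%), against 51.2% of all tested genes. With an adjusted p under 0.05 and a log2 fold change beyond 0.75 in either direction, 1 member was called (1.52%), against a background of 9.9% of all tested genes. The called gene was *Hnrnpdl*, which rose (2.64% of all tested genes were called higher). No member was called lower by limma, where 7.26% of all tested genes were. At an unadjusted p under 0.05, limma had 8 members higher (12.1%, background 12.4%) and 0 lower (background 15.7%).

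The 3 lines lay above all 3 MEC for 18 of the 66 members (27.3%), where 18.5% of all tested genes did so. The 3 lines lay below all 3 MEC for 1 member (1.52%), *Hnrnph3*, where 18.7% of all tested genes did so. Among the 18 were *Snrpd3*, *Snrpa*, *Sf3a1*, *Sf3a2*, *Sf3b2*, *Sf3b3*, *Prpf4b*, *Prpf8*, *Prpf19*, *Prpf31*, *Srsf1*, *Srsf6*, *Srsf9*, *Hnrnpdl*, *Hnrnpf*, *Hnrnpl* and *Hnrnpu*. They came from 6 of the 7 role groups and held no U2AF subunit. The members are highly expressed, with a median of 68.6 FPKM against 12.2 FPKM over all tested genes. Among the 2436 tested genes at or above the members' lower quartile of 37.8 FPKM, 57.1% had a log2 fold change above 0, 23.9% had all lines above all MEC and 15.2% had all lines below.

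MEC 3 bears on these counts. It was the lowest MEC library for 52 of the 66 members, and for 39.3% of all tested genes. Without MEC 3 the members' median log2 fold change was 0.10, and 48 of 66 were above 0, against 53.3% of all tested genes. Without line 199 the median was 0.15 and 49 were above 0. The number of members with all lines above all MEC was 18 without MEC 3, where 23.2% of all tested genes were, and 20 without line 199, where 26.0% were. The proliferation genes of MEC 3 given above move with the members, and their part in the result was not tested.

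**Figure D1:**
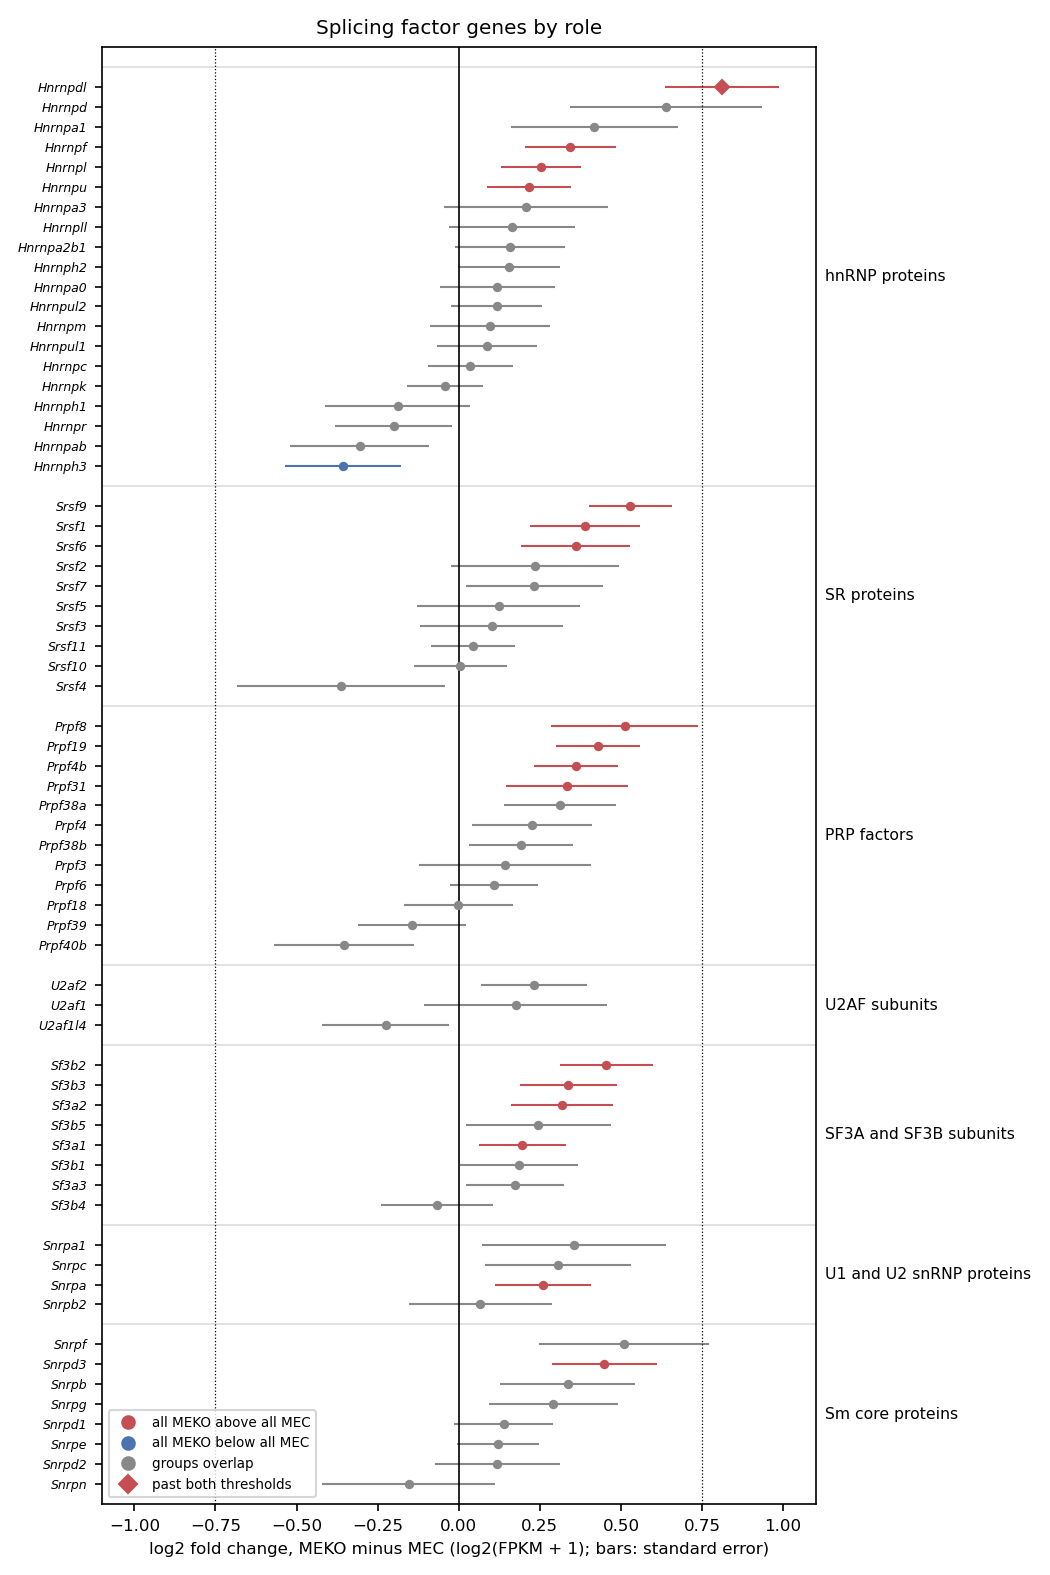
Log2 fold change of tested splicing factor genes, 1 not shown (horizontal axis, MEKO minus MEC on log2(FPKM + 1), points) with its standard error from limma (bars), in the 7 role groups. Red marks genes with all 3 lines above all 3 MEC, blue the reverse, the diamond the called gene *Hnrnpdl*, and dotted lines the fold threshold of 0.75. Most points lie between 0 and 0.5, and 12 lie below 0.

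The members differed less between the groups than other genes did. Their median absolute log2 fold change was 0.23, against 0.37 over all tested genes. Over the 2436 genes at or above 37.8 FPKM, a set with no upper limit, it was 0.33. Only 1 of 66 exceeded 0.75 in either direction (25.2% of all tested genes did) and 0 exceeded 1 (17.7%). The spread among the lines was also small, with a median SD of 0.19 on the log2 scale. It was 0.33 over all tested genes and 0.29 over the same 2436 genes. Among the 3 MEC the median SD was 0.15 for members and 0.18 for all tested genes. In 24 of the 66 members the highest of the 6 libraries was less than 1.5 times the lowest. This held for 15.6% of all tested genes, a share not matched for expression.

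Line by line, each line was set against the same 3 MEC libraries, so the 3 comparisons are not independent. Line 199 was above all MEC for 45 members (68.2%, background 40.2%), below for 10 (15.2%, background 39.1%) and within their range for 11. Line 233 was above all MEC for 33 members (50%, background 37.4%) and below for 7 (10.6%, background 37.9%). Line 336 was above for 32 members (48.5%, background 39.2%) and below for 7 (10.6%, background 37.4%). The median log2 ratio of the members to the MEC mean was 0.29, 0.13 and 0.18 in lines 199, 233 and 336. Line 199 had the highest of the 3 line values for 40 of the 66 members, a larger share than the 40.0% of all tested genes. With MEC 3 left out, 46, 33 and 33 members lay above the remaining MEC in lines 199, 233 and 336 (backgrounds 46.7%, 45.4% and 46.5%), and 12, 22 and 22 lay below (backgrounds 43.4%, 43.4% and 43.0%). With 1 library a line, no test of a line was possible.

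**Figure D2:**
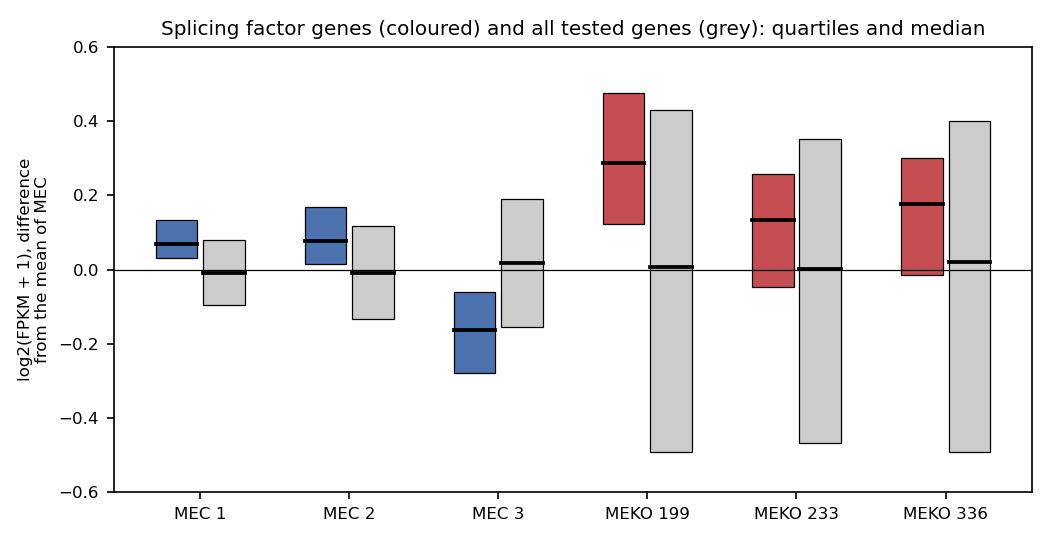
Difference of log2(FPKM + 1) from the mean of the 3 MEC (vertical axis) in each library, as the median (thick line) and quartiles (box) over the 66 tested splicing factor genes (blue MEC, red MEKO) and over all 12461 tested genes (grey). The members' median is −0.16 in MEC 3 and 0.29 in line 199, while the median of all tested genes stays within 0.02 of 0 in every library.

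By summed level the picture was similar. The 67 genes summed to 6968, 7041 and 5553 FPKM in MEC and to 7749, 7064 and 7440 FPKM in lines 199, 233 and 336. Line 233 exceeded MEC 2 by little. As a share of all FPKM this was 1.097% ± 0.144 in MEC and 1.32% ± 0.0795 in MEKO (SD, n = 3 each), a difference that did not pass the exact permutation test (two-sided p = 0.2, smallest possible 0.1). The 20 highest entries of each library took 18.3% to 27.5% of its FPKM. With those entries left out of the total the share was 1.43% ± 0.143 in MEC and 1.67% ± 0.0610 in MEKO, with every line above every MEC (exact permutation p = 0.1, the smallest this design allows). The share of mitochondrial genes ranged from 9.90% to 18.5% and overlapped between the groups.

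**Figure D3:**
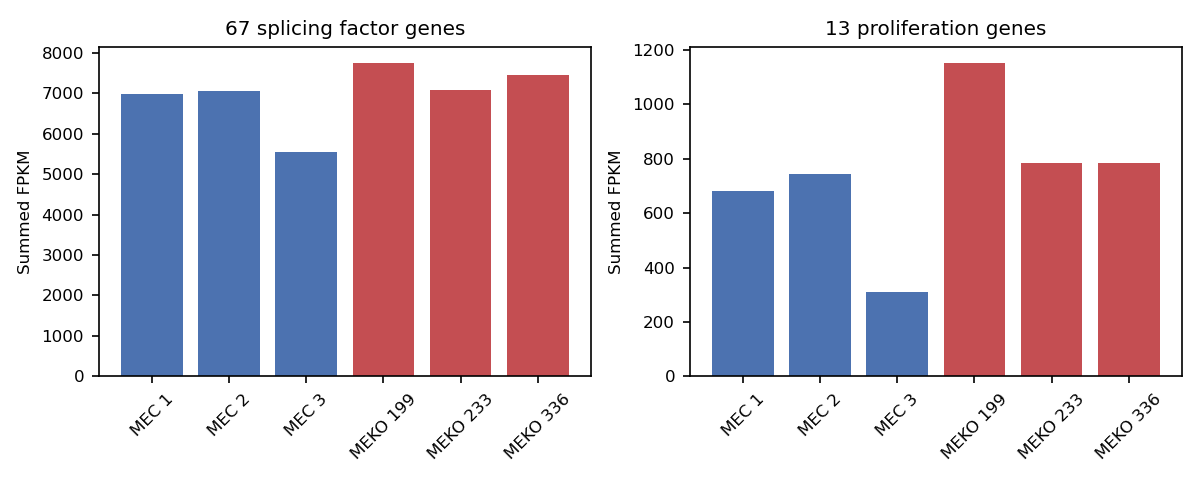
Summed FPKM (vertical axes, from 0) of the 67 splicing factor genes (left) and of the 13 proliferation genes (right) in each library, blue for MEC and red for MEKO lines. MEC 3 is lowest in both panels, at 5553 and 309.4 FPKM, and line 199 highest in both, at 7749 and 1153 FPKM.

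The Sm core proteins form the ring around the RNA of the U1, U2, U4 and U5 snRNPs. Of the 8 genes, 7 had a log2 fold change above 0 (background 51.2%) and 1 below, with a median of 0.22. None was called (background 9.9%). *Snrpf* was at 47.9, 46.3 and 29.4 FPKM in MEC and at 74.8, 55.2 and 46.6 FPKM in lines 199, 233 and 336. Line 336 lay between the MEC values, and the fold change of 0.51 ± 0.26 (SE) did not pass (adjusted p = 0.257, limma). Exons of *Ccdc38* on the opposite strand cover 65.9% of the *Snrpf* exons, and whether the library kept strand is not given in the sources used here, so reads of these genes may be mixed. *Snrpd3* was at 193.5, 196.2 and 150.2 FPKM in MEC and at 268.2, 221.3 and 245.5 FPKM in the lines. Its groups did not overlap, and its fold change of 0.45 ± 0.16 had an adjusted p of 0.136 (limma).

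*Snrpb* and *Snrpn* encode alternative forms of the same ring position. *Snrpb*, the form made in most cells, was at 149.5, 153.1 and 109.4 FPKM in MEC and at 213.9, 156.1 and 151.7 FPKM in the lines (log2 fold change 0.34 ± 0.21, adjusted p = 0.336, limma). *Snrpn*, an imprinted gene best known from neurons, is joined with *Snurf* in the table and was at 7.15, 5.38 and 8.57 FPKM in MEC and at 4.23, 6.90 and 7.75 FPKM in the lines. Its fold change of −0.15 ± 0.27 did not pass (adjusted p = 0.737, limma), and *Snrpb*, in FPKM and so per length, was far above *Snrpn* in every library. Exons of *Gm38393* on the same strand cover 27.3% of the *Snrpn* exons.

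All 4 genes for proteins specific to U1 and U2 snRNPs had fold changes above 0 (background 51.2%), from 0.07 to 0.35. None was called (background 9.9%). *Snrpa1*, whose protein belongs to the U2 snRNP, was at 63.8, 70.9 and 38.9 FPKM in MEC and at 94.99, 62.0 and 63.3 FPKM in the lines. Lines 233 and 336 lay below MEC 1 and MEC 2, and the fold change of 0.35 ± 0.28 did not pass (adjusted p = 0.452, limma). *Snrpc*, whose protein helps the U1 snRNP grip the splice site, was at 86.8, 83.2 and 71.9 FPKM in MEC and at 132.4, 75.6 and 98.9 FPKM in the lines (log2 fold change 0.31 ± 0.23, adjusted p = 0.413, limma).

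The SF3A and SF3B subunits hold the U2 snRNP on the branch point. Of the 8 genes measured under these names, 7 were above 0 (background 51.2%) and 4 had all lines above all MEC (background 18.5%). None was called (background 9.9%). *Sf3b2* was at 61.4, 65.1 and 67.9 FPKM in MEC and at 96.2, 77.6 and 94.5 FPKM in the lines, a fold change of 0.45 ± 0.14 (adjusted p = 0.1001, limma). *Sf3b3*, the WD40-repeat scaffold of the complex, was at 50.4, 52.0 and 47.0 FPKM in MEC and at 73.5, 59.7 and 57.4 FPKM in the lines (0.34 ± 0.15, adjusted p = 0.201). Both genes had groups that did not overlap. *Sf3b4* had the lowest value of the group, −0.07 ± 0.17 (adjusted p = 0.825, limma), with 43.1, 49.1 and 37.5 FPKM in MEC and 47.9, 38.7 and 37.1 FPKM in the lines.

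None of the 3 U2AF genes was called (background 9.9%), and in each of them the groups overlapped. *U2af2*, the large subunit that binds the pyrimidine tract, was at 90.3, 103.0 and 72.4 FPKM in MEC and at 103.0, 104.0 and 102.4 FPKM in the lines (log2 fold change 0.23 ± 0.16, adjusted p = 0.393, limma). The lines were close together and close to MEC 2. *U2af1*, the small subunit that reads the AG, ranged from 64.8 to 109.0 FPKM in MEC and was at 135.0, 75.7 and 90.2 FPKM in the lines, so that line 199 stood above all MEC and the other two lines lay within them. Its fold change of 0.18 ± 0.28 (adjusted p = 0.718, limma) was −0.06 without line 199 and −0.03 without MEC 3. *U2af1l4*, a *U2af1* paralog joined with *Igflr1* in the table, was at 11.8, 12.7 and 15.1 FPKM in MEC and at 8.77, 12.3 and 12.6 FPKM in the lines (−0.23 ± 0.20, adjusted p = 0.484, limma). Exons of *Gm49396* on the same strand cover 65.6% of the *U2af1l4* exons, so reads of these genes may be mixed.

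Among the 13 PRP factors, 10 had a fold change above 0 (background 51.2%) and 3 below. All lines lay above all MEC for 5 (background 18.5%), and none was called (background 9.9%). *Prpf8*, the U5 protein at the catalytic centre, was at 36.8, 36.7 and 32.2 FPKM in MEC and at 65.4, 53.4 and 37.0 FPKM in the lines. Line 336 cleared MEC 1 by little, and the fold change of 0.51 ± 0.23 did not pass (adjusted p = 0.200, limma). *Prpf19*, the ubiquitin ligase that names the Prp19 complex, was at 20.6, 20.8 and 19.0 FPKM in MEC and at 27.6, 26.5 and 28.3 FPKM in the lines. Both groups were tight, at 20.2 ± 0.980 and 27.5 ± 0.905 FPKM (SD, n = 3 each), and the fold change of 0.43 ± 0.13 had an adjusted p of 0.0910 (limma).

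*Prpf40b*, a U1-associated factor, had the lowest fold change of the group and was at 11.9, 10.1 and 16.4 FPKM in MEC and at 8.35, 10.6 and 9.92 FPKM in the lines (−0.35 ± 0.22, adjusted p = 0.327). Lines 199 and 336 lay below every MEC and line 233 within the MEC range. *Prpf39*, another U1-associated factor, was at 8.59, 7.83 and 7.99 FPKM in MEC and at 6.51, 6.83 and 8.58 FPKM in the lines (−0.14 ± 0.17, adjusted p = 0.603). *Prpf3*, a tri-snRNP protein, was nearly constant in MEC at 14.2, 14.3 and 14.3 FPKM but spread over 23.5, 15.02 and 11.2 FPKM in lines 199, 233 and 336. The lines thus lay on both sides of the MEC, and the range of their log2 ratios was 1.01.

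SR proteins carry an RNA-binding domain and a tail of arginine and serine repeats. Of the 10 tested genes, 9 were above 0 (background 51.2%) and 3 had all lines above all MEC (background 18.5%). *Srsf9* was at 68.7, 75.6 and 64.1 FPKM in MEC and at 97.1, 102.3 and 102.1 FPKM in the lines. Its means were 69.5 ± 5.79 and 100.5 ± 2.96 FPKM (SD, n = 3 each), the lines being 140%, 147% and 147% of the MEC mean. The groups did not overlap, and the fold change of 0.53 ± 0.13 missed both thresholds (adjusted p = 0.051, limma). *Srsf1*, the SR protein first purified as a splicing factor and also known as an oncoprotein, was at 140.7, 129.6 and 100.7 FPKM in MEC and at 174.2, 161.1 and 148.0 FPKM in the lines (0.39 ± 0.17, adjusted p = 0.195).

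Among the SR genes, *Srsf4* and *Srsf5* varied most from line to line. *Srsf4* was at 14.03, 13.8 and 11.5 FPKM in MEC and at 16.8, 6.85 and 8.39 FPKM in lines 199, 233 and 336. Line 199 was above every MEC and the other lines below every MEC, a range of 1.18 on the log2 scale, and the fold change was −0.36 ± 0.32 (adjusted p = 0.493, limma). It was −0.71 without line 199 (adjusted p = 0.0457, short of the fold threshold) and −0.12 without line 233 (adjusted p = 0.833). Exons of *Gm12992* on the opposite strand cover 43.0% of its exons. *Srsf5* was at 165.2, 173.5 and 139.6 FPKM in MEC and at 125.4, 172.5 and 239.0 FPKM in the lines, here with line 336 highest (range 0.93, log2 fold change 0.12 ± 0.25, adjusted p = 0.778, limma). *Srsf12* was the member left untested. It was at 0.616, 0.471 and 0.937 FPKM in MEC and at 0.0270, 0.171 and 0.212 FPKM in the lines, low values whose precision is unknown (exact permutation p = 0.1, the smallest possible).

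The hnRNP proteins include the most abundant members. The 5 highest by mean FPKM were *Hnrnpk*, *Hnrnpab*, *Hnrnpa1*, *Hnrnpa2b1* and *Hnrnpa3*. *Hnrnpk*, which binds poly(C) stretches, was at 552.7, 564.5 and 540.9 FPKM in MEC and at 554.8, 510.6 and 545.3 FPKM in the lines (−0.04 ± 0.12, adjusted p = 0.843, limma). Lines 199 and 336 were within the MEC range and line 233 was below it. *Hnrnpab* was at 514.2, 549.8 and 388.9 FPKM in MEC and at 305.5, 438.9 and 433.3 FPKM in the lines (−0.31 ± 0.21, adjusted p = 0.389).

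*Hnrnpa1*, a repressor of many exons, was at 314.0, 319.0 and 199.0 FPKM in MEC and at 325.5, 471.1 and 311.0 FPKM in the lines (log2 fold change 0.42 ± 0.26, adjusted p = 0.332, limma). Line 233 stood out there, and line 336 lay below MEC 1 and MEC 2. *Hnrnpa2b1* and *Hnrnpa3*, close relatives of *Hnrnpa1*, had fold changes of 0.16 and 0.21 with overlapping groups (adjusted p = 0.575 and 0.621). *Hnrnpa3* has near-identical transcripts (95% identity or more over at least 300 bases) of 24 other genes, 22 of them pseudogenes, and 27 of the 67 members have at least 1 such copy, so their FPKM depends on how the authors' software shared the reads.

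*Hnrnph3*, a small relative of the G-rich RNA binders hnRNP H and F, was the member with all lines below all MEC. It was at 16.7, 18.1 and 17.1 FPKM in MEC and at 16.6, 11.7 and 12.0 FPKM in the lines. Line 199 was only just under MEC 1, and the fold change of −0.36 ± 0.18 did not pass (adjusted p = 0.244, limma). Of the 20 hnRNP genes, 15 were above 0 (background 51.2%) and 5 below, with a median of 0.14.

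*Hnrnpdl* and *Hnrnpd* encode related proteins with paired RNA-recognition motifs. HnRNP D, also called AUF1, binds AU-rich elements in mRNA and is known for control of mRNA decay as well as splicing. *Hnrnpdl* (chr5:100033577-100039664, minus strand) was at 53.0, 53.0 and 47.8 FPKM in MEC and at 113.2, 79.3 and 82.8 FPKM in lines 199, 233 and 336. Every line exceeded every MEC, at 221%, 155% and 162% of the MEC mean. The means were 51.3 ± 3.00 and 91.8 ± 18.7 FPKM (SD, n = 3 each), and the fold change of 0.81 ± 0.18 passed both thresholds (adjusted p = 0.0376, limma).

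The call on *Hnrnpdl* is fragile. Without line 199 the fold change was 0.65 (adjusted p = 0.0251), under the fold threshold. Without MEC 1, MEC 2, MEC 3 or line 336 the fold change was 0.83, 0.83, 0.76 and 0.87, still past that threshold, and the adjusted p was 0.142, 0.128, 0.126 and 0.0591 by limma. *Hnrnpd* (chr5:99955935-99978938, minus strand) was at 146.5, 177.8 and 90.0 FPKM in MEC and at 267.9, 170.8 and 194.9 FPKM in the lines. Line 233 lay below MEC 2, and the fold change of 0.64 ± 0.30 did not pass (adjusted p = 0.219, limma).

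**Figure D4:**
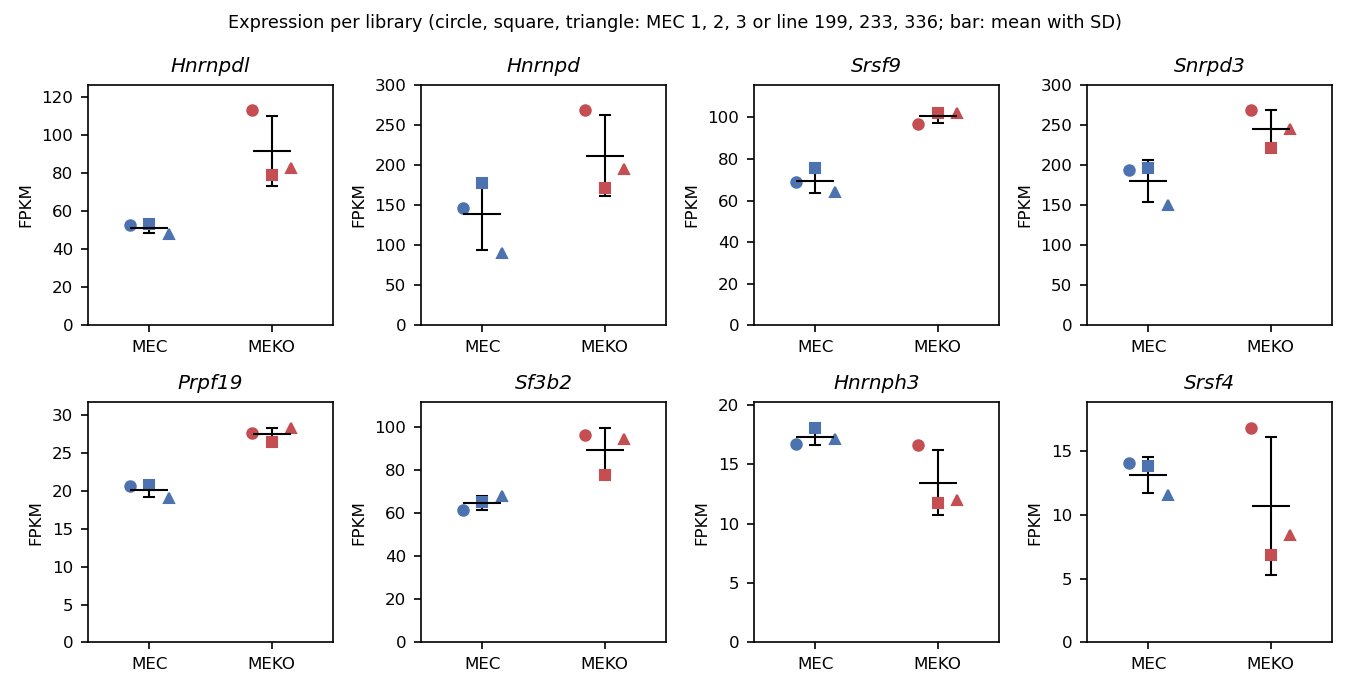
FPKM (vertical axes, from 0) of 8 splicing factor genes in each MEC (blue) and each MEKO line (red), with group means and SD in black. Every line is above every MEC for *Hnrnpdl*, *Srsf9*, *Snrpd3*, *Prpf19* and *Sf3b2*, the groups overlap for *Hnrnpd* and *Srsf4*, and every line is below every MEC for *Hnrnph3*.

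The 3 members on chromosome 5 sat on the chromosome with the highest median in the fit of MEKO against MEC. The median log2 fold change of its 692 tested coding genes was 0.28, the highest of 20 chromosomes over the 3 lines together. Its medians in lines 199, 233 and 336 were 0.26, 0.37 and 0.25, exceeded by chromosome 2 in line 199 (0.27) and by chromosome 19 in line 336 (0.26). On this chromosome 6.21% of the tested coding genes were called higher (background 2.64%) and 4.62% lower (background 7.26%). Above their chromosome's median, *Hnrnpdl* lay by 0.53, *Hnrnpd* by 0.36 and *Srsf9* by 0.25. Within 500000 bases on either side of the *Hnrnpd* and *Hnrnpdl* pair, 10 genes were tested. They include the pair itself, whose large increases set the window, and *Gm17092*, which lies within *Hnrnpd* on the opposite strand. All 10 had a fold change above 0 (background 51.2%) and 1, *Hnrnpdl*, was called (background 9.9%). Among them *Enoph1*, a methionine salvage enzyme gene that starts 321 bases from *Hnrnpdl* and runs the other way, was at 19.6, 23.1 and 14.4 FPKM in MEC and at 40.6, 25.9 and 21.9 FPKM in the lines (0.58 ± 0.28, adjusted p = 0.235, limma). The part that the chromosome-wide difference has in these genes was not tested.

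On chromosome 4 the median of 692 tested coding genes was −0.33, with −0.33, −0.37 and −0.25 in the lines, and 15.5% were called lower (background 7.26%). Of the 7 members there, 6 were tested and 4 of these were above 0, from −0.36 for *Srsf4* to 0.31. The untested *Srsf12* is on this chromosome too. Chromosome 14, with 1 member, was almost as low, with a median of −0.32 and 11.1% called lower. Over all 66 members, 51 were above the median of their own chromosome, and the median of the members' differences from it was 0.19, as large as their plain median.

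**Figure D5:**
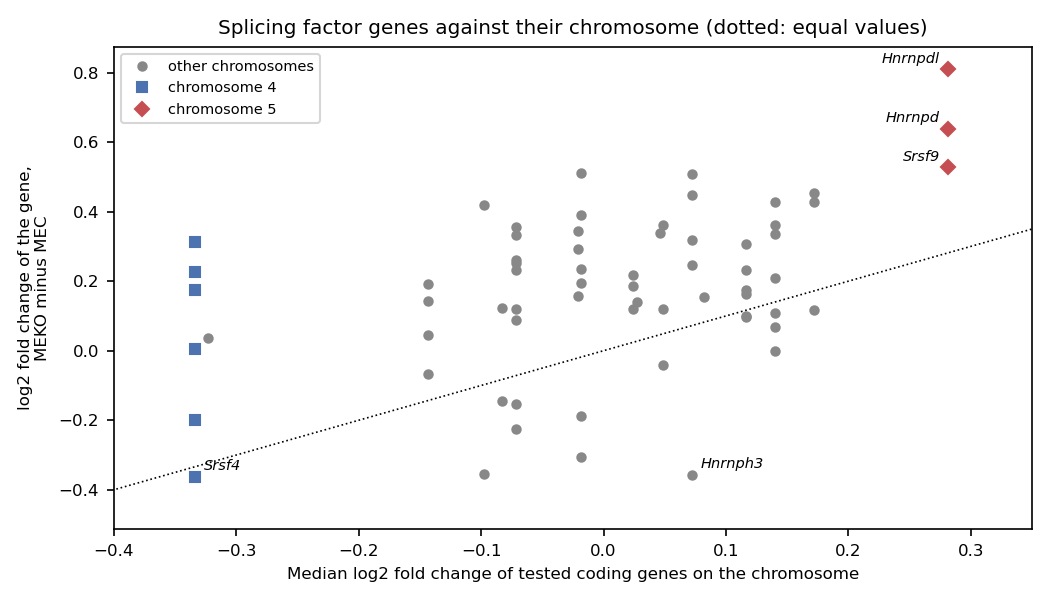
Log2 fold change of each tested splicing factor gene (vertical axis, MEKO minus MEC) against the median log2 fold change of all tested coding genes on its chromosome (horizontal axis), with chromosome 5 as red diamonds and chromosome 4 as blue squares. Points above the dotted line of equal values, 51 of 66, exceed their chromosome's median, and the 3 genes of chromosome 5 are the highest points.

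Outside these families, 124 other splicing genes were listed, 112 of them tested. Of these 78 were above 0 (background 51.2%) and 34 below, with a median of 0.16. Of the 112, 3 were called higher, close to the background of 2.64%, and 3 lower, under the background of 7.26%. All lines lay above all MEC for 34 (background 18.5%) and below for 8 (background 18.7%). Of the tri-snRNP, LSm and U1 proteins, 17 of 21 were above 0 (median 0.29). The SMN complex, which loads Sm rings onto snRNAs, had 10 of 13 above 0 (median 0.27), the minor spliceosome 8 of 9 (0.26) and the proteins of the catalytic steps and Prp19 complex 24 of 31 (0.17). The SR protein kinases had 2 of 6 above 0 (median −0.21), and the tissue-restricted and alternative splicing regulators 17 of 32 (median 0.03).

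The 3 genes called higher were *Sart3*, *Ddx20* and *Rbm38*. *Sart3*, which recycles the U4 and U6 snRNPs and also lies on chromosome 5, was at 13.7, 14.6 and 11.1 FPKM in MEC and at 32.1, 22.8 and 22.1 FPKM in the lines (log2 fold change 0.91 ± 0.20, adjusted p = 0.0400, limma). *Ddx20*, the helicase Gemin3 of the SMN complex, was at 10.2, 11.6 and 8.29 FPKM in MEC and at 20.8, 19.5 and 15.5 FPKM in the lines (0.83 ± 0.19, adjusted p = 0.0437). *Rbm38*, an RNA-binding target of p53 that regulates epithelial splicing and mRNA stability, was at 7.54, 9.20 and 8.86 FPKM in MEC and at 18.4, 23.3 and 26.4 FPKM in the lines (1.30 ± 0.18, adjusted p = 0.0113). In all of them every line exceeded every MEC.

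The 3 genes called lower were *Khdrbs3*, *Syf2* and *Mbnl2*. *Khdrbs3*, a STAR family regulator of alternative exons also known as SLM2, was at 36.5, 41.1 and 71.9 FPKM in MEC and at 1.61, 0.202 and 2.29 FPKM in the lines. The means were 49.8 ± 19.3 and 1.37 ± 1.07 FPKM (SD, n = 3 each), and its fold change of −4.48 ± 0.44 was the widest of all the splicing genes described here (adjusted p = 0.00355, limma). *Syf2*, a Prp19-related protein on chromosome 4, was at 34.6, 33.4 and 45.7 FPKM in MEC and at 15.4, 17.4 and 19.4 FPKM in the lines (−1.07 ± 0.18, adjusted p = 0.0183). *Mbnl2*, a muscleblind regulator, was at 50.03, 49.7 and 55.3 FPKM in MEC and at 19.6, 32.0 and 30.9 FPKM in the lines (−0.92 ± 0.21, adjusted p = 0.0454).

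The epithelial regulators did not pass the test. *Esrp1* was at 59.4, 55.3 and 58.0 FPKM in MEC and at 53.5, 41.7 and 45.9 FPKM in the lines, below every MEC in every line (−0.29 ± 0.14, adjusted p = 0.241, limma). *Esrp2* was at 19.0, 17.0 and 17.0 FPKM in MEC and at 9.95, 11.2 and 24.4 FPKM in the lines, with line 336 above every MEC and the others below (−0.31 ± 0.33, adjusted p = 0.568). *Ptbp1*, which represses exons in most non-neuronal cells, was at 224.1, 239.8 and 179.3 FPKM in MEC and at 281.1, 239.8 and 259.1 FPKM in the lines (0.28 ± 0.16, adjusted p = 0.292). The values are levels of the mRNAs of splicing factors, and splicing itself was not measured here.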

How the data were processed

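The labels describe paired-end RNA-seq libraries of 3 MEC and 3 MEKO cultures. The authors aligned trimmed reads to mm10 with Bowtie2 and TopHat2 2.0.14, and Cufflinks 2.2.1 gave the deposited FPKM of each gene, normalized for transcript length and library size. Some entries join several names, 3 members among them. No read counts come with FPKM, so depth is unknown and no counting interval was given. Ratios of small values put the relative depth at 0.920 to 1.30 of MEC 1.

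Entries with a mean FPKM of at least 1 were fitted on log2(FPKM + 1) with limma 3.58.1 in R 4.3.3, using its trended empirical Bayes step, and p-values were adjusted by Benjamini-Hochberg over all 12461. Called means an adjusted p under 0.05 and a log2 fold change beyond 0.75. Values after ± are SD for FPKM and shares and SE for log2 fold changes. The authors' own comparison was not repeated, since it needs reads. Single genes also had an exact permutation test (two-sided). Scripts were tested on simulated data.

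For each name the entry with the highest mean was kept, and 2 pseudogene names were left out. Of the members, 1 enters the counts but is not reported here by itself. Positions, overlaps and copies came from GENCODE M21 (GRCm38) with minimap2 2.31, promoters from RefSeq. The text names called genes, the 2 largest increases and decreases of each role group, the 5 members most spread among lines, the 5 most abundant, untested members, *Snrpn* with *Snrpb*, *Esrp1*, *Esrp2*, *Ptbp1*, *Mapk8* and *Mapk9*. Other names were chosen after their values were seen. The members and lists were chosen with earlier results of these data known. Alternatives were a pseudocount of 0.1, other expression filters, 3 other scalings, no trend, array weights, adjusted p alone, no joined entries and leaving out each library.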

Additional observations from a re-analysis of the deposited data

How the results depend on the processing

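No paired analysis was possible because the MEC preparations and the MEKO lines came from different animals. Leaving out a library, the count of all genes called ranged from 259 to 1966 (main 1234), of members called from 0 to 1, of other splicing genes called from 1 to 5 (main 6), the members' median from 0.10 to 0.24, and members above 0 from 48 to 55. Members with all lines above all MEC ranged from 18 to 29 (29 without line 336). The share of all tested genes was 20.3% to 26.0% (24.2% without line 336). Members with all lines below ranged from 2 to 3 (main 1, 3 without line 199), against 20.2% to 26.8% of all tested genes. Both counts were added after seeing the data. The members below all MEC ranged from 9 to 22 for line 233 and from 7 to 22 for line 336 (main 7 each), highest without MEC 3. Backgrounds there were 39.6% to 43.4% for line 233 and 39.2% to 43.0% for line 336. With array weights 1978 genes and 0 members were called and the median was 0.061. A filter at 5 FPKM gave 738 genes. Without an expression filter 3 other splicing genes were called, and with upper-quartile scaling 4 members lay below all MEC in line 336. With a library left out, the sign turned within the range of the fold change for *Sf3b4* (−0.18 to 0.027), *Snrpn* (−0.31 to 0.069), *U2af1* (−0.059 to 0.36), *Srsf5* (−0.11 to 0.35) and *Prpf3* (−0.13 to 0.38). With array weights it turned for *U2af1* (−0.043), *Hnrnpa3* (−0.090) and *Hnrnpa2b1* (−0.038), and with quantile normalization for *Hnrnpk* (0.061). None of these 8 genes passed both thresholds in any fit, and the cause was not tested. Of 15 alternatives, the call was lost in 6 for *Hnrnpdl*, 7 for *Sart3*, 6 for *Ddx20*, 2 for *Rbm38*, 3 for *Syf2*, 9 for *Mbnl2* and 0 for *Khdrbs3*. The 3 scalings left 53 to 55 members above 0. Unknown depth limits low genes most.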
